A study of Bos taurus with 24 samples.

Results

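Subcutaneous adipose tissue of 12 crossbred beef cows was biopsied under feed restriction and again under ad libitum feeding. The comparison described here asks whether cows of the High Gain group (n = 6) and cows of the Low Gain group (n = 6) changed the expression of their genes differently between these biopsies. For each cow the log2 level at restriction was subtracted from the log2 level at ad libitum feeding, and the 12 changes were compared between the gain groups, so that all 24 of the 24 arrays of the series were used. A difference of response is the mean change in High Gain minus the mean change in Low Gain. All values are log2 values with the median of each array set to 0, so that a difference of 1 is a 2-fold difference.

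The cows were mature, of the same age, not pregnant, and their calves had been weaned. They were the 6 highest and the 6 lowest gaining of 121 cows, with gain calculated over the ad libitum period. Restriction was a diet of 120 kcal of metabolizable energy per kg of metabolic body weight for a period of 112 days, with the biopsy on day 105 on the left side. The ad libitum biopsy was taken on day 49 of its period on the right side. Diet, side and time cannot be told apart, but both gain groups share them. The study also reported a lower average RNA integrity at restriction than at ad libitum feeding, and did not give it per gain group. The breed make-up of the gain groups differed. The study reported that the High Gain cows also ate more in the ad libitum period, so that gain and intake cannot be told apart. The order in which the samples were processed was not given in the sources used here. Cows are called H1 to H6 and L1 to L6 below.

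Adipose tissue stores fatty acids as triglyceride in adipocytes, and in cattle these fatty acids are made largely from acetate inside the adipocyte when feed is plentiful. Each adipocyte lies beside capillaries, whose endothelial cells pass fatty acids, glucose and hormones to it. Growth and upkeep of these vessels are steered by vascular endothelial growth factors acting on the receptors FLT1 and KDR, and by angiopoietins acting on the receptor TEK. Caveolae, small pits of the cell membrane built from caveolins and cavins, are dense in both endothelial cells and adipocytes.

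The arrays had 26773 transcript clusters, of which 24997 were tested. Of the tested clusters 18790 carried exactly 1 gene symbol, 385 several and 5822 none. Array medians before centring were 8.26 to 8.34 at restriction and 7.83 to 7.94 at ad libitum feeding, and the ranges of the gain groups overlapped within each diet. The tissue label was borne out by the adipocyte markers ADIPOQ and FABP4, whose mean log2 signals over all arrays were 19.49 and 19.90. The scale ended at 19.93, which 48 clusters touched on 1 or more arrays, and changes of these clusters can be cut short. Each sample was measured on 1 array.

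Most of the response was shared. In High Gain 5049 clusters (20.2% of all tested) rose and 4527 (18.1%) fell at an adjusted p under 0.05. In Low Gain 4970 clusters (19.9%) rose and 3779 (15.1%) fell. Mean changes of the gain groups had the same sign in 80.4% of clusters and correlated at r = 0.834 across the 24997 clusters, which are not independent of each other and share the same arrays. The median size of the difference of response was 0.175. A change called in both groups went the same way in 6237 clusters (25.0%) and opposite ways in 21 (0.0840%).

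The response differed between the gain groups at an adjusted p under 0.05 in 5 clusters (0.0200%), and in all 5 the change was lower in High Gain. No cluster was called higher by limma (0.00%), while 934 clusters (3.74%) were higher and 1382 (5.53%) lower at an unadjusted p under 0.05. With a fold over 2 added to the unadjusted p, 109 clusters (0.436%) were higher and 178 (0.712%) lower. The 6 changes of High Gain lay all above the 6 of Low Gain in 40 clusters (0.160%) and all below them in 96 (0.384%). The split at the unadjusted p depended on the scaling of the arrays, with 1259 higher and 1088 lower clusters on the values as deposited, 1145 and 1128 after quantile normalization and 1587 and 874 when arrays were centred on their 75th percentile. The median difference over all clusters was -0.01, and 0.03, 0.00 and 0.07 under these alternatives.

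**Figure D1:**
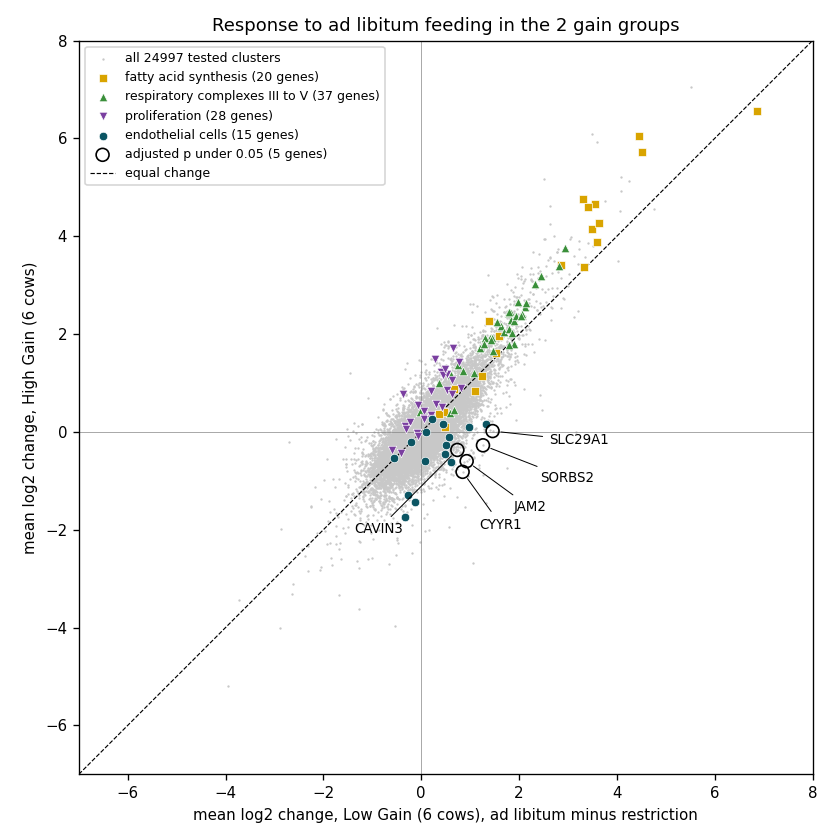
Mean log2 change (ad libitum minus restriction) of each tested cluster in Low Gain (horizontal) and High Gain (vertical), with 4 gene lists in colour, the 5 genes with an adjusted p under 0.05 circled, and the line of equal change dashed. Most clusters lie near the line, the 5 circled genes lie to the right of it with mean changes of 0.74 to 1.46 in Low Gain, and most endothelial genes lie below it.

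The 5 called genes were CYYR1, a small membrane protein, SORBS2, an adaptor between adhesion sites and actin, JAM2, an adhesion molecule of endothelial junctions, SLC29A1, an equilibrative nucleoside transporter that carries adenosine, and CAVIN3, a coat protein of caveolae. All 5 rose in Low Gain. In High Gain CYYR1, JAM2 and CAVIN3 fell, and SORBS2 and SLC29A1 did not pass the test.

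CYYR1 (cluster 12682628) changed by -1.24 to -0.21 in the High Gain cows (mean -0.82 ± 0.41 SD, n = 6) and by 0.29 to 1.24 in the Low Gain cows (mean 0.85 ± 0.31, n = 6). Every High Gain cow was lower at ad libitum feeding and every Low Gain cow higher. The level in High Gain had a lowest, median and highest value of 6.31, 7.19 and 7.93 at restriction and of 5.87, 6.37 and 6.68 at ad libitum feeding. In Low Gain these values were 5.55, 6.44 and 6.98 at restriction and 6.35, 7.31 and 7.92 at ad libitum feeding. The groups therefore changed places, with High Gain higher at restriction and lower at ad libitum feeding. The difference of response was -1.66 (SE 0.21, limma, adjusted p = 0.0314), and both responses passed the test on their own (adjusted p = 0.000701 and 0.000635).

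SORBS2 (cluster 12825497) changed by 0.90 to 1.69 in Low Gain (mean 1.26 ± 0.31, adjusted p = 3.49e-05) and by -0.71 to 0.22 in High Gain (mean -0.27 ± 0.40, adjusted p = 0.153). Median levels of Low Gain were 1.50 at restriction and 2.87 at ad libitum feeding, against 2.05 and 2.04 in High Gain. The changes of the groups did not overlap, and the difference of response was -1.54 (SE 0.21, adjusted p = 0.0354).

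JAM2 (cluster 12686165) had levels of 5.65, 5.87 and 6.43 (lowest, median and highest) in High Gain at restriction and of 4.41, 5.12 and 5.38 in Low Gain, with no overlap between the groups. At ad libitum feeding the levels were 4.87, 5.26 and 5.76 in High Gain and 5.68, 5.92 and 6.41 in Low Gain. The mean change was -0.60 ± 0.49 in High Gain (adjusted p = 0.00685) and 0.93 ± 0.22 in Low Gain (adjusted p = 0.000429), a difference of -1.53 (SE 0.21, adjusted p = 0.0378).

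SLC29A1 (cluster 12801674) rose in Low Gain by 1.32 to 1.67 (mean 1.46 ± 0.13, adjusted p = 1.46e-05), the narrowest spread of the 5 genes. In High Gain the second biopsy was higher in 4 cows and lower in 2, with changes of -0.77 to 0.63 (mean 0.02 ± 0.50, adjusted p = 0.941). Its difference of response was -1.44 (SE 0.21, adjusted p = 0.0378). CAVIN3 (cluster 12727402) changed by -0.73 to 0.09 in High Gain (mean -0.37 ± 0.31, adjusted p = 0.0205) and by 0.54 to 1.02 in Low Gain (mean 0.74 ± 0.17, adjusted p = 0.000289), a difference of -1.11 (SE 0.16, adjusted p = 0.0378).

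These calls were near the threshold. Leaving out any 1 of H1, H6, L1, L2, L4 and L6 left 0 clusters called, leaving out H2 or L3 left 1, and leaving out H5 left 3. A fit to the 24 arrays without the cow as a block also called 0, with a smallest adjusted p of 0.0508. Over the 12 fits that leave out 1 cow the difference stayed between -1.78 and -1.58 for CYYR1 and between -1.20 and -1.04 for CAVIN3.

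The 12 named genes with the smallest p for a lower change in High Gain were these 5 and ENG, PDGFC, ANGPT2, KLF6, PLXNA2, MIR145 and ERG, with adjusted p of 0.0314 to 0.118. In all 12 the changes of the groups did not overlap, as in 0.384% of all clusters, but the genes were chosen by the same contrast. ENG, a co-receptor for transforming growth factor beta on endothelial cells, rose in both groups, by 1.64 ± 0.30 in Low Gain (1.31 to 2.14, adjusted p = 4.15e-06) and by 0.38 ± 0.37 in High Gain (0.05 to 0.90, adjusted p = 0.043). The difference was -1.26 (SE 0.20, adjusted p = 0.0617). A second ENG cluster (12702649) gave a difference of -1.70 (SE 0.31, adjusted p = 0.105), with changes that overlapped between the groups.

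ANGPT2, the angiopoietin that loosens the vessel wall, rose in Low Gain by 1.94 ± 0.54 (1.27 to 2.68, adjusted p = 1.95e-05) and changed by -0.80 to 0.95 in High Gain (mean 0.24 ± 0.57, adjusted p = 0.387). PDGFC, a platelet-derived growth factor, rose in Low Gain by 0.65 and fell in High Gain by 0.36. PLXNA2, a semaphorin receptor, rose in Low Gain by 0.79 and fell in High Gain by 0.42. The transcription factors KLF6 and ERG, the latter an ETS factor of endothelial cells, fell in High Gain by 1.31 and 1.29, and in Low Gain changed by 0.47 and -0.27, neither of which passed the test.

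MIR145 (cluster 12882556) had the widest difference of these 12, -2.76 (SE 0.50, adjusted p = 0.107). It fell in High Gain by 1.44 (SD 0.97), with changes of -3.01 to -0.20, and rose in Low Gain by 1.31 (SD 1.05), with changes of 0.02 to 2.82. This is the gene of a microRNA known from vascular smooth muscle, and the cluster does not tell its precursor from its mature form. MIR143, its neighbour in mammalian genomes, had a difference of -1.10 (adjusted p = 0.389).

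**Figure D2:**
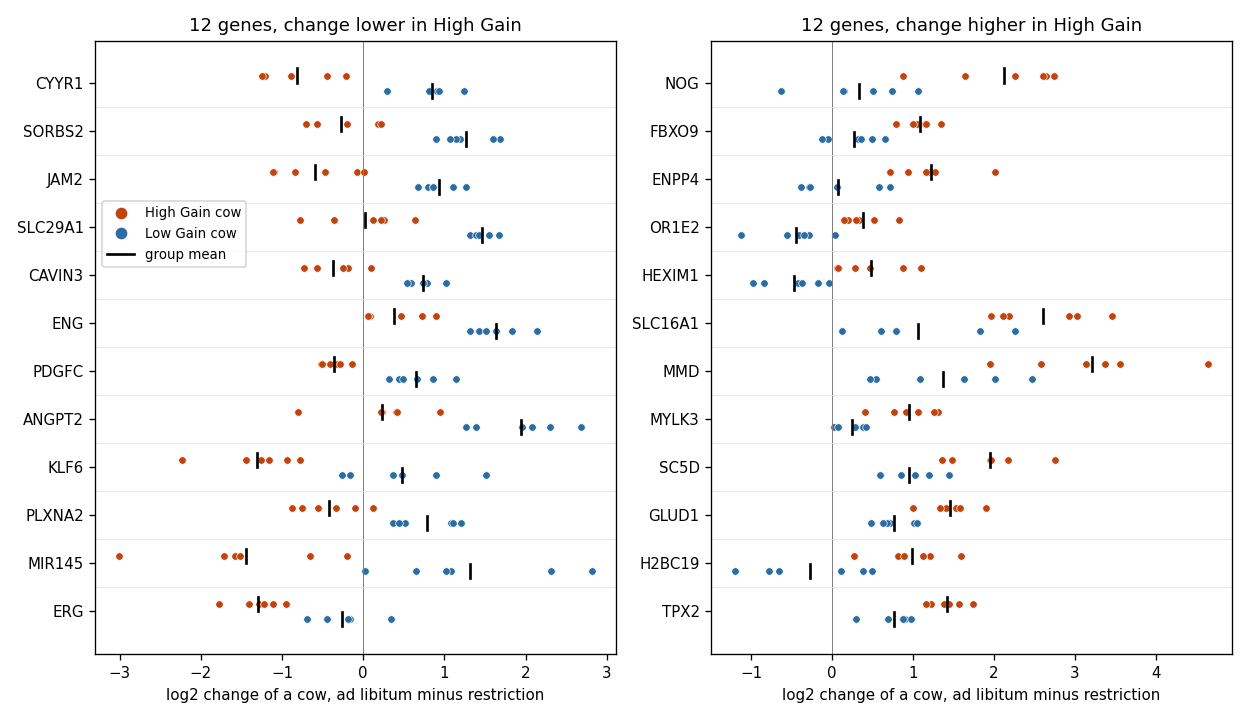
Log2 change of each cow (points) and group means (bars) for the 12 named genes with the smallest p for a lower change (left) and for a higher change (right) in High Gain. On the left the groups of points do not overlap for any gene, and on the right they do not overlap for 5 of the 12. Of all clusters 0.384% and 0.160% did not overlap in these directions, but the genes were chosen by the same contrast.

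The 12 named genes with the smallest p for a higher change in High Gain had adjusted p of 0.130 to 0.269, so that none was called. NOG, which binds and blocks bone morphogenetic proteins, came first. It rose in High Gain by 2.13 ± 0.73 (0.88 to 2.74, adjusted p = 1.88e-05) and changed by -0.63 to 1.07 in Low Gain (mean 0.33 ± 0.59, adjusted p = 0.309), a difference of 1.80 (SE 0.34, adjusted p = 0.13). At restriction its median level was 0.09 in High Gain and 1.85 in Low Gain, and at ad libitum feeding 2.45 and 2.27.

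SLC16A1, a carrier of lactate and other monocarboxylates, rose in both groups, by 2.61 ± 0.61 in High Gain and 1.07 ± 0.81 in Low Gain (difference 1.55, adjusted p = 0.263). Its change in the Low Gain cows ranged from 0.13 to 2.26. MMD, a membrane protein linked to monocyte maturation, rose by 3.21 ± 0.92 and 1.37 ± 0.81 (difference 1.84, adjusted p = 0.265). SC5D, an enzyme of cholesterol synthesis, rose by 1.95 and 0.95, and GLUD1, the mitochondrial glutamate dehydrogenase, by 1.46 and 0.76.

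The spindle protein TPX2 rose by 1.42 ± 0.22 in High Gain and 0.77 ± 0.25 in Low Gain without overlap (difference 0.65, adjusted p = 0.269). FBXO9, the F-box part of a ubiquitin ligase, rose in High Gain by 1.08 ± 0.19, as did the ectonucleotidase ENPP4, by 1.22 ± 0.44, while their Low Gain changes of 0.28 and 0.07 did not pass the test. HEXIM1, an inhibitor of transcription elongation, and OR1E2, an olfactory receptor gene, rose in High Gain by 0.48 and 0.39 and fell in Low Gain by 0.47 and 0.45. The remaining genes were MYLK3 with a difference of 0.71 and H2BC19 with 1.26, which both rose in High Gain and did not pass the test in Low Gain.

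A difference of response is the gap between the groups at ad libitum feeding minus their gap at restriction, and the levels show how each part contributed. For the 12 genes with a lower change, High Gain was above Low Gain at restriction in all 12, by 0.23 to 1.34 (median 0.74), and below it at ad libitum feeding in all 12, by -1.42 to -0.52 (median -0.74). The groups changed places for each of these genes. For the 12 genes with a higher change, High Gain was below Low Gain at restriction by -1.73 to -0.00 (median -0.55) and above it at ad libitum feeding in 11 of 12, with gaps of -0.03 to 0.80 (median 0.40). The restriction gap was the larger part in 5 of the first 12 and in 7 of the second 12. Since the genes were chosen by the difference, these gaps are a description without a test.

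**Figure D3:**
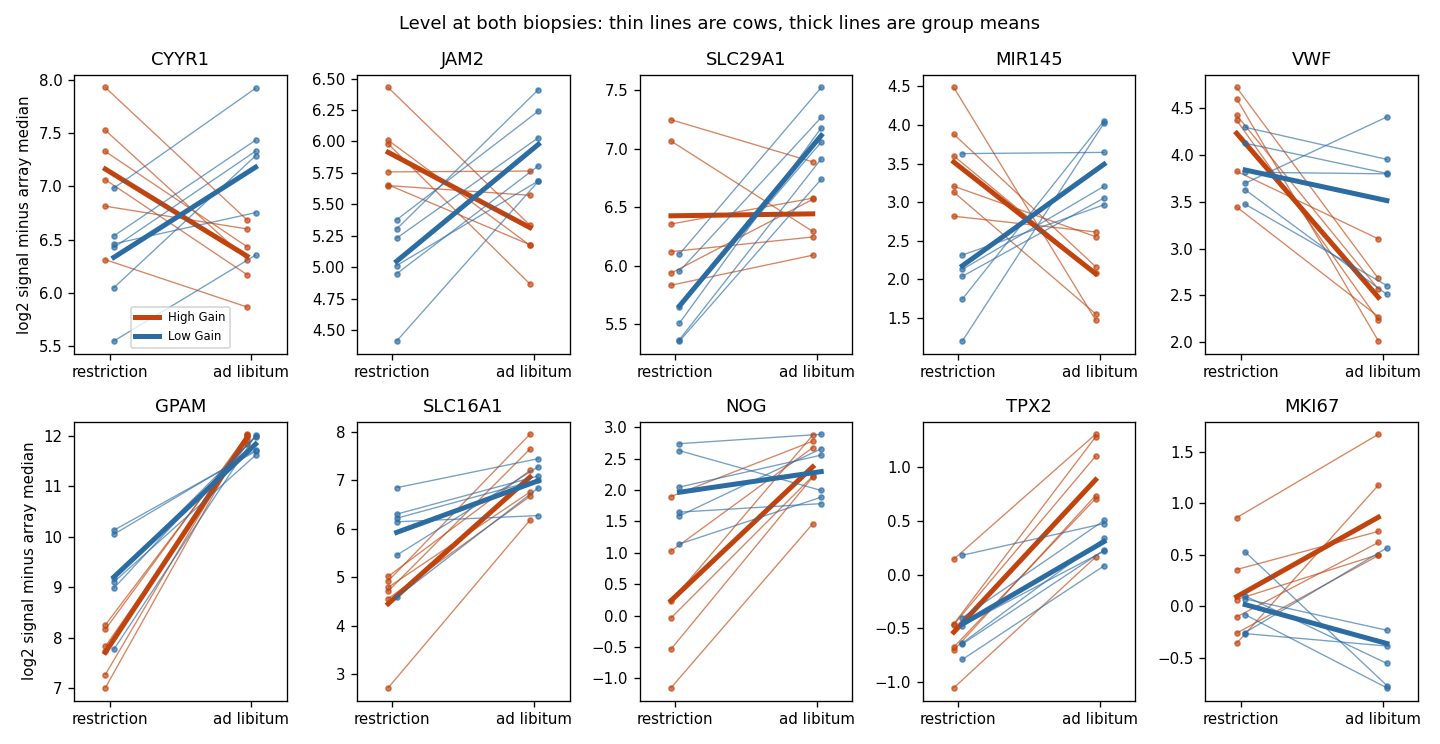
Level (log2 signal minus array median) of 10 genes at restriction and ad libitum feeding, with a thin line per cow and a thick line per group mean. For CYYR1, JAM2 and MIR145 the group means cross, for GPAM, SLC16A1 and NOG the High Gain cows start lower and the groups end near each other, and for TPX2 and MKI67 the groups start near each other and part at ad libitum feeding.

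Among named genes with a group mean at or above the array median, 24 had mean changes over 0.5 from 0 in opposite directions. In 23 of these the High Gain mean was the negative one. The tested clusters held 17262 distinct gene names before this filter on level. Both counts were made only with arrays centred on their medians. Clusters at or above the median signal had a median difference of -0.07, against -0.01 over all tested clusters. For the brightest clusters it was -0.07 with this centring and -0.03 on the values as deposited. It was 0.01 for them after quantile normalization and when centred on the 75th percentile. Of all tested clusters 21 (0.0840%) were called in both responses in opposite directions. Of the 14 named genes among them, 12 fell in High Gain and rose in Low Gain. They were CYYR1, JAM2, CAVIN3, PDGFC, PLXNA2, MIR145, RAPH1, PTP4A3, FLT1, EZR, MEOX1 and ADRA1A. The other 2 were OR1E2 and HEXIM1. All these directions are relative to the array medians, which were 8.26 to 8.34 at restriction and 7.83 to 7.94 at ad libitum feeding. A rise smaller than this drop of the medians is a fall on the values as deposited. FLT1 fell in High Gain by 0.85 (adjusted p = 0.00548) and rose in Low Gain by 0.61 (adjusted p = 0.0359) without overlap between the cows, a difference of -1.46 (SE 0.29, adjusted p = 0.165). EZR, which ties the membrane to actin, fell in High Gain by 0.63 and rose in Low Gain by 0.61 (difference -1.24, adjusted p = 0.165). SERPING1, the inhibitor of complement C1, rose in Low Gain by 1.07, and its High Gain change of -0.54 did not pass the test (difference -1.61, adjusted p = 0.295).

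The endothelial list stood lowest of the 31 gene lists described. Of its 15 genes 9 were lower in High Gain at an unadjusted p under 0.05 and 0 higher, against 5.53% and 3.74% of all clusters, and the median difference was -0.78 against -0.01. None of the 15 was called at the adjusted p. Low Gain cows raised 5 of the genes, namely CDH5, EMCN, EGFL7, KDR and ROBO4, while High Gain cows lowered ERG, VWF, TEK and TIE1. These counts stand beside 19.9% of all clusters that rose in Low Gain and 18.1% that fell in High Gain. TIE1 also fell in Low Gain, with a difference of 0.00. In bulk tissue, fewer cells of a type and less RNA per cell cannot be told apart.

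VWF, the clotting factor stored in endothelial cells, had levels of 3.44, 4.40 and 4.72 (lowest, median and highest) in High Gain at restriction and of 2.01, 2.42 and 3.10 at ad libitum feeding, and fell by 1.75 (SD 0.68, adjusted p = 9.31e-05). In Low Gain it changed by -1.12 to 0.71 (mean -0.33 ± 0.65, adjusted p = 0.313), a difference of -1.42 (SE 0.34, adjusted p = 0.265). CDH5, the cadherin of endothelial junctions, showed the other form. It rose in Low Gain by 0.97 ± 0.36 in 6 of 6 cows (adjusted p = 0.000331) and changed by 0.10 ± 0.41 in High Gain, where 3 of 6 cows were higher (difference -0.87, SE 0.22, adjusted p = 0.281). PECAM1, EMCN, ESAM and EGFL7, all proteins of the endothelial surface, junctions or matrix, had differences of -0.94, -0.78, -1.22 and -0.66. The lymphatic genes PROX1 and FLT4 had differences of 0.03 and 0.01, and the third lymphatic marker LYVE1 one of -0.67 that missed the unadjusted p.

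The mean change over the 15 endothelial genes was -0.69 to -0.12 in the High Gain cows (mean -0.44 ± 0.20 SD) and 0.07 to 0.44 in the Low Gain cows (mean 0.26 ± 0.17), so that the cows of the groups did not overlap. High Gain minus Low Gain had a median of 0.33 under restriction and of -0.36 under ad libitum feeding. The log2 of the summed signal of the list had a lowest, median and highest value of 8.51, 9.07 and 9.17 in High Gain at restriction and of 8.32, 8.60 and 9.23 at ad libitum feeding. In Low Gain these were 7.85, 8.36 and 8.74, and then 8.69, 8.83 and 9.35. The number of lower genes stayed at 9 to 10 with any 1 cow left out and at 8 to 9 under the other settings.

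Medians of some marker lists of other cells of the tissue moved with single cows. The 11 genes of smooth muscle and pericytes had a median difference of -0.11, with 1 lower, TAGLN (difference -0.67). The 13 fibroblast and progenitor genes had a median of 0.15, with 1 lower, CD34 (difference -0.80), a gene that endothelial cells also express. Of all clusters 5.53% were lower. With 1 cow left out the smooth muscle median ranged from -0.33 (without H2) to 0.01 (without H6). The fibroblast median ranged from -0.10 (without L5) to 0.51 (without L4). The CD34 difference ranged from -0.91 to -0.55, and L1 changed by 2.61 for CD34 (the other Low Gain cows 0.79 to 1.40). The 14 genes of mature adipocytes had a median of -0.00. Of these genes 4 reached the end of the scale, so that their changes and summed levels can be cut short. Their summed log2 level was 13.45 to 14.02 in High Gain and 13.82 to 14.14 in Low Gain at restriction, and 14.31 to 14.60 and 14.53 to 14.64 at ad libitum feeding. Macrophage genes had a median of -0.18 in 15 genes (-0.37 without H5 and -0.01 without H3), with summed median levels of 6.47 and 7.01 in High Gain and 6.11 and 6.71 in Low Gain at restriction and ad libitum feeding. The part of cell composition in the endothelial difference was not tested.

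Ligands and receptors of the vascular pathways, and the kin of the called genes, were looked up after values had been seen. VEGFA, the main vascular growth factor, rose in Low Gain by 1.45 (adjusted p = 0.00491). In High Gain 5 of 6 cows were higher, by up to 1.07, and H5 changed by -2.01 (mean 0.21, median 0.62). The difference of response of VEGFA was -1.24 (adjusted p = 0.467). The other growth factors VEGFB, VEGFC, VEGFD and PGF had differences of 0.20, -0.17, -0.34 and -0.19. Of the receptors, KDR rose in Low Gain by 1.32 (difference -1.16, adjusted p = 0.408), and the co-receptors NRP1 and NRP2 had differences of -0.30 and -0.79. TEK, the angiopoietin receptor, fell in High Gain by 1.43 (adjusted p = 0.00142) and changed by -0.13 in Low Gain (difference -1.30, adjusted p = 0.342), while its ligands ANGPT1 and ANGPT4 had differences of 0.55 and 0.11. ACVRL1, the kinase that signals with ENG, had a difference of -0.83.

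Members of the caveolar coat did not move alike. CAVIN1 fell in High Gain by 0.92 (adjusted p = 0.00242) and changed by 0.28 in Low Gain (difference -1.20, adjusted p = 0.258), and CAV1 had a difference of -0.45 (adjusted p = 0.331) with changes that did not overlap. CAV2 and CAVIN2 had differences of -0.33 and 0.02. Among the junctional adhesion molecules, F11R and JAM3 had differences of -0.75 and -0.20.

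Genes of cell division formed the list with the most higher members. Of 28 genes 11 were higher in High Gain at an unadjusted p under 0.05 and 0 lower, against 3.74% and 5.53% of all clusters. The difference was positive in 26 of the 28, where it was positive in 12101 of all 24997 clusters. The median was 0.37. In High Gain 16 of the 28 rose and 2 fell, where 20.2% of all clusters rose and 18.1% fell. In Low Gain 7 rose and 2 fell, where 19.9% of all clusters rose and 15.1% fell. The groups were alike at restriction, with a median gap of -0.04, and apart at ad libitum feeding, with a median gap of 0.39. The proliferation antigen MKI67 had median levels of -0.02 in High Gain and -0.00 in Low Gain at restriction, and of 0.67 and -0.47 at ad libitum feeding. It rose in High Gain by 0.77 ± 0.42 (adjusted p = 0.0115) and changed by -0.38 ± 0.71 in Low Gain, where 1 of 6 cows was higher (difference 1.15, SE 0.30, adjusted p = 0.287).

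CCNA2, a cyclin of S phase, rose in High Gain by 1.49 and changed by 0.28 in Low Gain (difference 1.21). The topoisomerase TOP2A rose in both groups, by 1.71 and 0.65 (difference 1.06), as did the spindle motor KIF11, by 1.19 and 0.52 (difference 0.67). CENPF, KIF20A and RRM2 had differences of 0.83, 0.72 and 0.80. Mean changes over the list were 0.29 to 1.09 in the High Gain cows, with H1 and H6 highest, and -0.12 to 0.46 in the Low Gain cows. Most of these clusters lay near or below the array median, and with dim clusters left out 2 genes of the list were higher. With any 1 cow left out the count was 8 to 12.

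Of 20 genes of fatty acid synthesis 18 rose in each group, where 20.2% of all clusters rose in High Gain and 19.9% in Low Gain. The median difference was 0.33 (0.22 without L1 and 0.49 without L6), with 4 genes higher and 0 lower at the unadjusted p, against 3.74% and 5.53% of all clusters. The median gap was -0.55 under restriction and -0.04 under ad libitum feeding. ACSS2, which activates acetate, had levels of 5.41, 6.49 and 7.58 (lowest, median and highest) in High Gain and of 7.40, 7.87 and 9.52 in Low Gain at restriction, and median levels of 11.36 and 11.35 at ad libitum feeding. It rose by 4.76 ± 0.64 and 3.31 ± 0.85 (difference 1.45, SE 0.38, adjusted p = 0.287). ACACA, which makes malonyl-CoA, rose by 4.65 and 3.55 (difference 1.10), SLC25A1, the mitochondrial citrate carrier, by 5.72 and 4.52 (difference 1.20), and ACSL1, which activates long-chain fatty acids, by 2.26 and 1.38 (difference 0.88).

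In triglyceride assembly 10 of 19 genes rose and 1 fell in High Gain, and 11 rose and 1 fell in Low Gain. Of all clusters 20.2% rose and 18.1% fell in High Gain, and 19.9% rose and 15.1% fell in Low Gain. The difference was higher in 3 genes and lower in 1 at the unadjusted p (3.74% and 5.53% of all clusters), so that the lower count was near the share of all clusters, and the median was 0.18 (0.10 without L4). GPAM, the acyltransferase of the first step, had restriction levels of 7.01, 7.79 and 8.26 in High Gain and of 7.77, 9.14 and 10.13 in Low Gain, and rose by 4.25 ± 0.52 and 2.63 ± 0.98 (difference 1.62, SE 0.40, adjusted p = 0.275). AGPAT2, the acyltransferase of the next step, rose by 4.61 ± 1.05 and 2.63 ± 1.14 (difference 1.99, SE 0.54, adjusted p = 0.298), and the lipid droplet protein CIDEA by 4.01 and 2.70 (difference 1.31). LPIN1, a phosphatidate phosphatase, went the other way, with a rise in Low Gain of 2.48 and a High Gain change of 0.44 that did not pass the test (difference -2.03).

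Some of these genes reached the end of the scale, among them FASN, ELOVL6, SCD and THRSP of the first list and DGAT2 of the second, so that their differences of response are not fully measured. The mean change over the fatty acid synthesis list was 2.71 to 3.30 in the High Gain cows. In Low Gain 4 cows lay at 2.78 to 3.07 and L1 and L4 at 1.96 and 1.68. The count of 4 higher genes dropped to 2 without any 1 of H2, H4, L3 and L4.

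Genes of mitochondrial respiration had a like pattern of gaps. In respiratory complexes III to V, 36 of 37 genes rose in High Gain and 35 in Low Gain (20.2% and 19.9% of all clusters). The difference was positive in 33 of the 37, where it was positive in 12101 of all 24997 clusters. The median was 0.47, and 6 were higher and 0 lower at the unadjusted p. For this and the next lists the shares of all clusters were 3.74% higher and 5.53% lower. The 6 genes were COX7A2L, UQCRFS1, UQCRC2, ATP5PD, ATP5F1A and ATP5MG, with differences of 0.50, 0.63, 0.58, 0.55, 0.52 and 0.69. Complex I gave a median of 0.29 with 3 of 37 higher (NDUFA10, NDUFS1 and NDUFV1) and 0 lower, and the citric acid cycle a median of 0.41 with 4 of 24 higher (MDH1, DLD, FH and PDHB) and 0 lower. The median gap was -0.42, -0.37 and -0.34 in these 3 lists at restriction and 0.04, -0.04 and 0.02 at ad libitum feeding. Branched-chain amino acid degradation had a median of 0.39 (0.21 without H2) with 2 of 23 higher, OXCT1 (difference 0.86) and ACADSB (difference 0.70).

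The count of respiratory genes rested on single cows. The mean change over complexes III to V was 1.79 to 2.41 in the High Gain cows. Among the Low Gain cows L2, L5 and L6 lay at 2.08 to 2.15, within that range, and L3, L1 and L4 at 1.31, 1.19 and 0.63, below it. The count of 6 higher genes was 1 without L4 or H2, 2 without L3, H3 or H4, 3 without L1, 10 without L5 and 11 without L2, while the median stayed between 0.30 and 0.60. The count was 2 with a trended and robust prior, and 10 and 11 when arrays were centred on the 75th percentile or quantile normalized. The citric acid cycle count of 4 was 2 to 6 over the cows left out, with 2 without L1 or L4, and 6 to 7 under the other scalings, and its median was 0.27 without L4. The complex I median was 0.16 without L4 and 0.44 without L2, and its count was 5 without H1 or L6, 6 without L2 and 7 without L5. Over the cows left out, the count for branched-chain amino acid degradation was 1 to 8, and under the other scalings 7 to 9.

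Among matrix genes 3 of 35 were higher and 3 lower at the unadjusted p, against 3.74% and 5.53% of all clusters. The median was -0.05. There were 6 higher without H4 and 6 lower without H6. The inhibitor of matrix proteases TIMP4 rose in High Gain by 1.59 ± 0.66 and changed by -0.69 to 0.85 in Low Gain without overlap (difference 1.15, SE 0.32, adjusted p = 0.306). COL14A1 and the collagen cross-linking enzyme LOX had differences of 1.09 and 1.29. THBS2, a thrombospondin, fell in both groups, by 2.58 in High Gain and 1.01 in Low Gain (difference -1.57). THBS1 changed by -9.44 to -1.11 in High Gain, where H2 had the lowest value, and by -1.99 to 1.98 in Low Gain (difference -3.42, SE 1.16, adjusted p = 0.396).

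Of the list of adipokines and insulin signalling 3 of 19 genes were higher and 4 lower, against 3.74% and 5.53% of all clusters, with a median of -0.35 (-0.17 without L1). The lower count was 3 to 6 over the cows left out and 1 in the fit with no replicate block. IGF1 rose in High Gain by 2.16 and in Low Gain by 0.91 (difference 1.26). NNAT, an imprinted gene of adipocytes that reached the end of the scale, fell in Low Gain by 2.71 and changed by -2.60 to 3.72 in High Gain (difference 2.51). FOXO1, a transcription factor held back by insulin, fell in High Gain by 0.65 and changed by 0.27 in Low Gain (difference -0.92). IGFBP3, SFRP5 and GHR had differences of -1.54, -1.35 and -0.61, and MEST one of 0.44.

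Glucocorticoid and fasting genes had a negative difference in 14 of 18, where 12895 of all 24997 clusters had one. Their median was -0.39, which was -0.18 without L4 and -0.58 without L2. One gene passed the unadjusted p, KLF9 with a difference of -0.87, near the share of all clusters (5.53% lower). Of the 16 immediate early genes, which respond within minutes to stimuli and to tissue handling, 3 were lower (KLF6, MYC and ZFP36) and 1 higher (EGR2), against 5.53% and 3.74% of all clusters. MYC fell in High Gain by 1.62 and changed by -0.36 in Low Gain (difference -1.26). In cholesterol synthesis all 19 genes rose in both groups, where 20.2% of all clusters rose in High Gain and 19.9% in Low Gain. The median difference of this list was -0.07, and SC5D and IDI1 were higher, by 0.99 and 0.95. Lipolysis had a median of -0.09 in 18 genes, with PRKACB, a catalytic part of protein kinase A, higher by 0.59 and the adrenergic receptor ADRA2A lower (difference -0.31). Fatty acid oxidation (median 0.07, 24 genes) and glycolysis (median 0.10, 22 genes) each had 1 higher gene, ACADS with 0.80 and LDHB with 0.81, about the 3.74% of all clusters. For fatty acid oxidation the count was 5 without L5 and 4 after quantile normalization, and the median was -0.10 without H2 and 0.19 without H1. Lipid uptake, endoplasmic reticulum stress and interferon lists had medians of -0.03, -0.23 and -0.20 and no gene past the unadjusted p in either direction. With 1 cow left out the stress list had 0 to 4 lower genes.

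**Figure D4:**
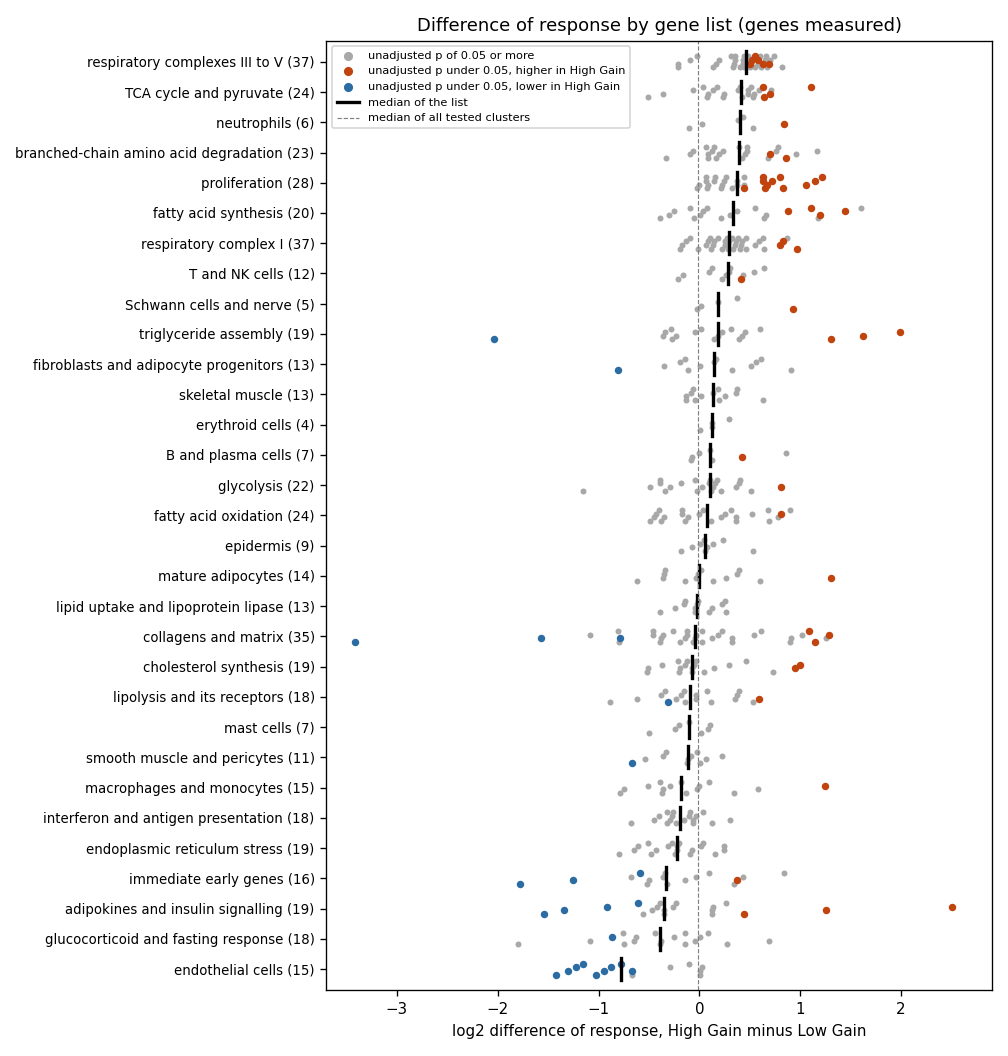
Difference of response (log2, High Gain minus Low Gain) of each measured gene in 31 lists, ordered by the list median (bar), with genes at an unadjusted p under 0.05 in colour. Endothelial cells stand at the bottom with 9 lower genes of 15, and the respiratory, citric acid cycle and proliferation lists near the top, where all coloured genes are higher.

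Of all clusters 3.74% were higher at the unadjusted p, and counts in the small lists of immune cells varied with the setting. Of the T and NK cell list 1 of 12 genes was higher (CD8A, 0.41), of the B cell list 1 of 7 (CD79B, 0.42), of the neutrophil list 1 of 6 (S100A9, 0.84), and of the macrophage list 1 of 15 (VSIG4, 1.24). None of these lists had a lower gene. The T and NK cell and neutrophil lists were dim, with group medians of the summed log2 level of 3.07 to 3.28 (12 genes) and 2.36 to 2.54 (6 genes). The T and NK cell count was 4 without L2 or when centred on the 75th percentile, the neutrophil count 3 without H1 or with that centring, and the B cell count 0 without L4, H5 or H6. The S100A9 difference was 0.50 without L4. Mast cell, skeletal muscle, erythroid and epidermal lists had none in either direction. In the list of Schwann cells and nerve 1 of 5 was higher, S100B, a gene that rose in High Gain by 3.99 and in Low Gain by 3.06 (difference 0.93) and that adipocytes express as well.

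The size of the response as a whole was measured per cow by the slope of its changes over all 24997 clusters on the mean changes of the other cows. The slope was 0.894 to 1.13 in High Gain (mean 0.995 ± 0.078 SD) and 0.601 to 1.08 in Low Gain (mean 0.875 ± 0.193). The difference of 0.121 did not pass the exact two-sided permutation test over the 12 cows (p = 0.188, where 0.00216 is the smallest p possible). L4 and L1 had the lowest slopes, 0.601 and 0.709, and were also lowest for fatty acid synthesis and respiration, but not for the endothelial list, where L1, L4 and L2 had the highest mean changes of all cows. The SD of the changes over clusters was 0.747 in High Gain and 0.690 in Low Gain, a difference of 0.0575 (exact permutation p = 0.0866). Over the 12 fits with 1 cow left out this exact p ranged from 0.0390 (without L2) to 0.173 (without H2), and it was under 0.05 in 2 of them, without L2 and without H3 (p = 0.0476).

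**Figure D5:**
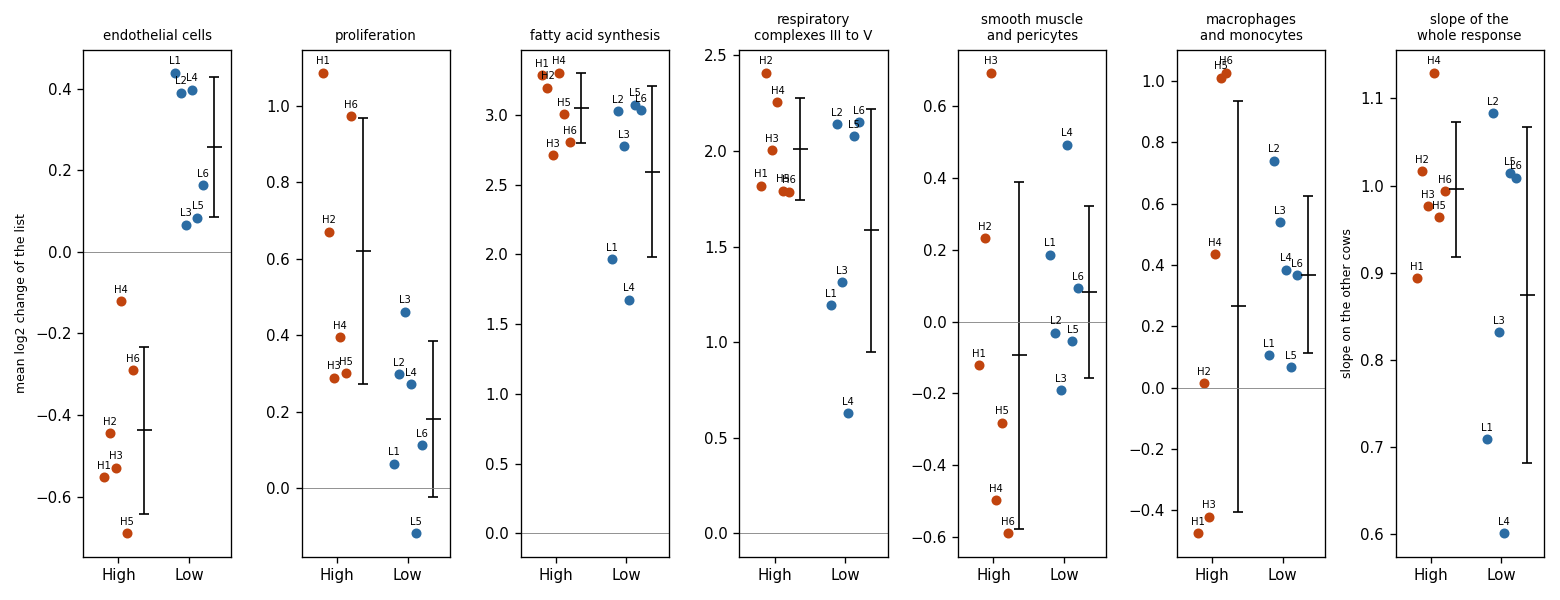
Mean log2 change of each cow (points) over 6 gene lists and the slope of its whole response, with the group mean and SD as bars, for High Gain and Low Gain (n = 6 each). For endothelial genes the High Gain cows lie at -0.69 to -0.12 and the Low Gain cows at 0.07 to 0.44, while for fatty acid synthesis and respiration L1 and L4 lie below all other cows.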

How the data were processed

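Per the labels and the study's methods, RNA of each biopsy was hybridized to 1 Bovine 1.1ST array, and the authors made the deposited log2 values in Affymetrix Expression Console by RMA after a correction for GC content (GCCN) and a rescaling of the signal space (SST). Versions are not given in the sources used here. The values stop at the end of the scale, which shortens changes there, and centring takes the median cluster as unchanged.

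The titles number the biopsies 1 and 2. They were taken as restriction and ad libitum feeding because Tukey biweight group means (tuning constant 5) matched the study's tabulated group means most closely that way. Of 26773 clusters, 1776 with identifiers below the lowest named one were left out. Each array was centred on its median over the tested clusters. limma 3.58.1 in R 4.3.3 (lmFit, eBayes, two-sided) was fitted to the 12 changes, with both responses sharing 1 spread, with Benjamini-Hochberg adjustment over 24997 clusters. Gene names came from the platform annotation. A gene with several clusters is represented in the lists by its brightest cluster, and among the top genes by the one with the smallest p. Python 3.11.15, pandas 2.3.3 and scipy 1.17.1 made the tables and exact tests. The number of arrays limits the precision, since no depth exists for arrays.

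Named genes were, among clusters with 1 symbol and a group mean at or above the array median, the 12 smallest p in each direction, up to 3 members of each list, the 6 smallest p with opposite means over 0.5, up to 6 called in opposite directions, and any called gene. Other names were chosen after their values were seen. The members of the comparison and the 31 lists were chosen with earlier results of these data known.

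The arrays of a cow come from 1 animal, as the number in the titles states. Deviations from group means correlated at a median of 0.185 (0.101 to 0.339) within High Gain cows and 0.102 (0.0291 to 0.294) within Low Gain cows. Between cows the medians were -0.0505 and -0.0249. Deviations from a group mean sum to 0 over its cows, which pulls these values below 0, so that they are no separate baseline. The change per cow is this block. Tested on simulated data with 24997 clusters, a difference of response of 0.5, 1, 1.5 and 2 was recovered in 6%, 52%, 86% and 88% of 50 clusters each, with 8 false calls. The simulated noise was normal and independent between clusters, unlike in the arrays. The rates also depend on how many clusters truly differ, so that they need not hold for these data. Alternatives covered scaling, the block, the prior, array weights, an unmoderated test, the clusters kept, gene means, and each cow left out. Counts of list members under these settings were added after seeing the data.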

Additional observations from a re-analysis of the deposited data

Results flagged for a closer look

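The difference of response passed the adjusted p for 5 genes, CYYR1 (-1.66), SORBS2 (-1.54), JAM2 (-1.53), SLC29A1 (-1.44) and CAVIN3 (-1.11), each lower in High Gain than in Low Gain.

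Single cows stood far from the other 5 of their group in 12 of 204 sets of 6 values looked at, and chance sets apart about 1 in 20. L3 changed by -0.69 for TIMP4 (the other Low Gain cows 0.49 to 0.85) and by 1.98 for THBS1 (the others -1.99 to -0.58). L1 changed by 2.61 for CD34 (the others 0.79 to 1.40), and L4 by -2.46 for S100A9 (the others -0.74 to 0.08).

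Among mean changes over a list, L3 had -0.78 for lipolysis (the others -0.07 to 0.30) and -0.37 for adipokines and insulin signalling (the others 0.10 to 0.28). H6 had 1.42 for glycolysis (the others 1.13 to 1.20), and H2 had 2.19 for branched-chain amino acid degradation (the others 1.21 to 1.56). H3 had 1.77 for skeletal muscle genes (the others -0.11 to 0.32), and L4 had -0.65 for epidermal genes (the others -0.17 to 0.05). For B and plasma cell genes H5 had 0.49 (the others -0.32 to -0.09) and L6 had -0.59 (the others -0.26 to -0.14).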

How the results depend on the processing

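The 5 genes called lower in High Gain were 2 on the values as deposited, 2 after quantile normalization, 2 when centred on the 75th percentile, 1 with array weights and 0 in the unmoderated test. In the fit to all 24 arrays with no replicate block the count was 0, and it was 5 with the replicate block as a fixed term. Leaving out 1 cow gave 0 to 6. CYYR1 and SORBS2 were called under all 3 other scalings. CYYR1 had adjusted p of 0.0134 to 0.129 over the cows left out. At an unadjusted p with a fold over 2, the 109 higher clusters were 70 genes on gene means. On the values as deposited, where the array medians of the diets differ, the response had 1894 clusters higher and 13663 lower in High Gain and 1608 higher and 13981 lower in Low Gain, and with the 75th percentile 5777 were lower in Low Gain. The SD of changes differed by 0.0368 to 0.0713 over the cows left out. Over 69 named genes and 1651 values, 1580 stayed on their side of the threshold, 69 lost it, 2 gained it and 0 changed sign. The causes were not tested. Clusters at the end of the scale limit what can be measured of the strongest rises.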
